A study of Mus musculus with 12 samples.

Results

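Cholinergic and motor nucleus genes were followed in the brain of a mouse model of classical late infantile neuronal ceroid lipofuscinosis, a lysosomal storage disease caused by loss of tripeptidyl peptidase 1. The 7 genes, of 52459 listed in each count table, were *Chat*, *Slc18a3*, *Slc5a7*, *Ache*, *Chrna3*, *Chrnb4* and *Prph*. They were chosen by name, with their differences between the genotypes already known, as a sign of brainstem nuclei in the dissected tissue, so those differences are given below as a description, with no p value. Poly(A)-selected RNA was measured in 4 groups of 3 libraries each: the cerebellum of wild type mice (Cb-N), the cerebellum of Tpp1-/- mice (Cb-T), the forebrain/midbrain of wild type mice (F/M-N) and the forebrain/midbrain of Tpp1-/- mice (F/M-T). All mice were males aged 4 months, the labels name no other allele and no treatment, and the Tpp1-/- mice were homozygous for a *Tpp1* gene disrupted by gene targeting, which affects every cell and not only neurons. The line was kept by crossing heterozygotes, and the wild type mice were siblings.

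Acetylcholine is made from choline and acetyl-CoA in the cytoplasm of cholinergic neurons, pumped into synaptic vesicles, released, and split in the synaptic cleft, after which the choline is taken up again. In the brain it is made by motor neurons and other cholinergic groups of the brainstem, by neurons of the basal forebrain and by interneurons of the striatum, whereas the cortex of the cerebellum mostly receives it through fibers from brainstem cells. Dissected brain tissue holds many cell types, and in such bulk RNA fewer cells of a type and less RNA per cell cannot be told apart.

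Library totals ranged from 21428379 to 24458189 counts. At this depth, 3 counts, the smallest number taken as detectable, corresponded to 0.121 to 0.139 CPM (counts scaled to the size of the library with the TMM method), which covers counting error only. *Tpp1* was at 112 to 114 CPM in Cb-N and 28 to 31 CPM in Cb-T, and at 87.7 to 94.3 CPM in N and 21.8 to 23.9 CPM in T of F/M, so every library matched its genotype label. Genes that mark the cerebellum summed to 4750 to 4760 CPM in Cb-N and 4230 to 4250 CPM in Cb-T, and to at most 21.5 CPM in F/M, whereas genes that mark the cortex of the forebrain summed to 275 to 320 CPM in F/M and 6.49 to 9.49 CPM in Cb. The RNA came from 3 mice of each genotype per the study's methods, and the sources do not tie single libraries to single mice, so the p values below measure the spread between these libraries.

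In 4 of the 7 genes each Cb-T library lay above every Cb-N library and below every F/M library, and the promoter DNA of these 4 is shown because they share that pattern. The share of all genes with this pattern was not counted. Part of the pattern rests on the values that chose the genes, so it is a description only. *Chat* encodes choline acetyltransferase, the enzyme that makes acetylcholine, and lies on chromosome 14 (GRCm38, 32408203 to 32465989, minus strand). *Slc18a3* encodes the vesicular acetylcholine transporter and lies wholly inside *Chat* on the same strand (chromosome 14, 32462438 to 32464850), with its start 1139 bases downstream of the *Chat* start and no exon shared between the 2 genes. *Slc5a7* encodes the high-affinity choline transporter that takes choline back into the nerve ending (chromosome 17, 54273590 to 54299034, minus strand). *Prph* encodes peripherin, an intermediate filament protein of motor neurons and of neurons that project out of the brain (chromosome 15, 99055174 to 99058978, plus strand). The lines below give the bases that lie before the first annotated exon, 5′ to 3′ on the strand of the gene, from RefSeq (GRCm38.p6), at chr14:32465990-32466159 for *Chat*, chr14:32464851-32465041 for *Slc18a3*, chr17:54299035-54299234 for *Slc5a7* and chr15:99054974-99055173 for *Prph*. Capitals mark each match to TATAAA, to the TGACG motif, or to the homeodomain core TAAT, on either strand.
Chat: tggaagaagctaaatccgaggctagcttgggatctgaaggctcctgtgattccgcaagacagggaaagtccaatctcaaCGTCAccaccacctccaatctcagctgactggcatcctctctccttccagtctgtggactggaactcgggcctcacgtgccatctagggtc
Slc18a3: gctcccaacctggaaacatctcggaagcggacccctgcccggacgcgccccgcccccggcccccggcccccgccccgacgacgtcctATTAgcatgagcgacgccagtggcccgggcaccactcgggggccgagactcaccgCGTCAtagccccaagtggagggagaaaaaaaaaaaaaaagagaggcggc
Slc5a7: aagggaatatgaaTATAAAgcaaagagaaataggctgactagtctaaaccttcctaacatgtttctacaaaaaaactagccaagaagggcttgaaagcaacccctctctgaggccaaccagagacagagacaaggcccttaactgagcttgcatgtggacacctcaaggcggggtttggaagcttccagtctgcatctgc
Prph: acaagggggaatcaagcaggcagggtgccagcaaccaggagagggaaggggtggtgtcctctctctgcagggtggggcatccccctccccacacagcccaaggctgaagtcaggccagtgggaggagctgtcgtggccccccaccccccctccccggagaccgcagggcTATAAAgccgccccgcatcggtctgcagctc
All 7 genes had a promoter window in RefSeq, and the 250 bases before the RefSeq start were searched on both strands. TATAAA, the core of the TATA box, was found once in *Slc5a7* and once in *Prph*, against 12.4% of 32851 promoters with a match. TGACG, the core of the cAMP response element, was found once in *Chat* and once in *Slc18a3*, against 17.8% of promoters. TAAT, the core that homeodomain proteins bind, was found once, in *Slc18a3*, against 54.9% of promoters. CANNTG, the E-box, was found in all of them but *Prph*, against 66.2% of promoters. None of the 4 motifs holds another within it, and a match is a description of the letters only. The stretches differed in base content, with 54.7% G and C in *Chat*, 67.5% in *Slc18a3*, 46.0% in *Slc5a7* and 67.5% in *Prph*.

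The gene for the synthesis of acetylcholine was near the limit of detection in the control cerebellum. *Chat* had 3, 2 and 2 counts in the Cb-N libraries (0.133, 0.0917 and 0.0928 CPM) and 44, 30 and 38 counts in the Cb-T libraries (1.86, 1.21 and 1.57 CPM). Every Cb-T library lay above every Cb-N library. In F/M the levels were 4.81, 4.01 and 4.11 CPM in N and 4.68, 4.76 and 4.37 CPM in T, and the groups overlapped. The summed counts gave a T to N ratio of 14.5 in Cb, with a counting interval (95%, exact) of 6.81 to 36.9, and of 1.07 in F/M (0.910 to 1.255). The fitted log2 fold change was 3.81 (SE 0.404) in Cb, a value that depends on the prior count where N is this low, and 0.13 (SE 0.123) in F/M.

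The vesicular transporter gene, which sits within *Chat*, had the lowest level per kb of exon of the 7 in control cerebellum. *Slc18a3* had 1, 0 and 1 counts in the Cb-N libraries, all below the 3 counts taken as detectable, and 21, 21 and 18 counts in the Cb-T libraries (0.886, 0.845 and 0.746 CPM). The Cb groups did not overlap. The F/M libraries were at 1.43, 2.16 and 2.58 CPM in N and 2.98, 2.36 and 2.35 CPM in T, with the N libraries spread more widely than the T libraries and the groups overlapping. The ratio of summed counts was 27.2 in Cb, with a wide counting interval of 7.21 to 229.8, and 1.24 in F/M (0.991 to 1.56). Since the Cb-N level rests on 2 counts in all, the fitted log2 fold change of 4.55 (SE 0.604) in Cb also depends on the prior count. In F/M it was 0.34 (SE 0.199).

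The choline transporter gene was detected in all 12 libraries. *Slc5a7* was at 0.710, 0.550 and 0.742 CPM in Cb-N and at 4.68, 4.91 and 4.60 CPM in Cb-T, again without overlap. The F/M levels were 11.4, 13.2 and 10.3 CPM in N and 11.8, 13.99 and 11.98 CPM in T, where the groups overlapped. Its log2 fold change was 2.83 (SE 0.194) in Cb and 0.15 (SE 0.0924) in F/M, and the ratio of summed counts in Cb was 7.09 (counting interval 5.17 to 9.94).

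*Ache* encodes acetylcholinesterase, which ends the signal by splitting acetylcholine (chromosome 5, 137287519 to 137294466, plus strand). Of the 7 genes it had the highest level per kb of exon in each group and the least difference between the genotypes in Cb. It was at 62.7, 64.9 and 67.6 CPM in Cb-N and at 64.2, 67.6 and 62.8 CPM in Cb-T, and the groups overlapped. In F/M it was at 83.2, 90.7 and 88.9 CPM in N and 91.2, 89.2 and 93.4 CPM in T, with overlap. The log2 fold change was 0.0098 (SE 0.039) in Cb and 0.09 (SE 0.039) in F/M. Its exons share 98 bases with the antisense gene *Gm42456*, and how strand was used in counting is not given in the sources used here, so reads of the pair in that stretch are uncertain.

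The receptor subunit genes *Chrna3* and *Chrnb4* encode the nicotinic α3 and β4 subunits, which together form the receptor of autonomic ganglia and are known in the brain for the medial habenula. They lie side by side on chromosome 9, both on the minus strand, with 1592 bases between the end of *Chrnb4* (55028154 to 55048779) and the start of *Chrna3* (55010111 to 55026562). *Chrna3* was at 1.24, 1.42 and 1.67 CPM in Cb-N and at 3.63, 3.74 and 3.77 CPM in Cb-T, without overlap. Its F/M levels were 3.51, 3.74 and 3.51 CPM in N and 3.63, 3.48 and 3.30 CPM in T, and the groups overlapped. The Cb-T libraries of *Chrna3* thus lay in or just above the range of the F/M libraries, unlike those of *Chat*, *Slc18a3*, *Slc5a7* and *Prph*, which lay below every F/M library. The log2 fold change of *Chrna3* was 1.38 (SE 0.173) in Cb and -0.02 (SE 0.131) in F/M.

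*Chrnb4* did not follow its neighbor. It was at 1.69, 2.52 and 1.99 CPM in Cb-N and at 3.12, 2.82 and 2.44 CPM in Cb-T, where the lowest T library lay below the highest N library. The F/M libraries held 1.17, 1.48 and 1.06 CPM in N and 1.80, 1.53 and 2.01 CPM in T, and here every T library lay above every N library. The log2 fold change was 0.45 (SE 0.178) in Cb and 0.56 (SE 0.214) in F/M. Within a library, and per kb of exon, the level of *Chrna3* over that of *Chrnb4* was 0.399 to 0.592 in Cb-N, 0.822 to 1.09 in Cb-T, 1.78 to 2.35 in F/M-N and 1.16 to 1.61 in F/M-T, so that no 2 groups overlapped. The gene *Gm47877* overlaps *Chrnb4* on the other strand, with no exon in common.

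The filament gene *Prph* varied most among the control cerebellum libraries after *Slc18a3*. It was at 0.444, 0.504 and 0.0928 CPM in Cb-N, where the last library held 2 counts, and at 0.801, 1.09 and 0.994 CPM in Cb-T. The groups did not overlap. For F/M the levels were 2.47, 2.12 and 2.20 CPM in N and 1.71, 2.19 and 2.74 CPM in T, with N inside the range of T. The log2 fold change was 1.46 (SE 0.366) in Cb and 0.0023 (SE 0.187) in F/M.

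**Figure D1:**
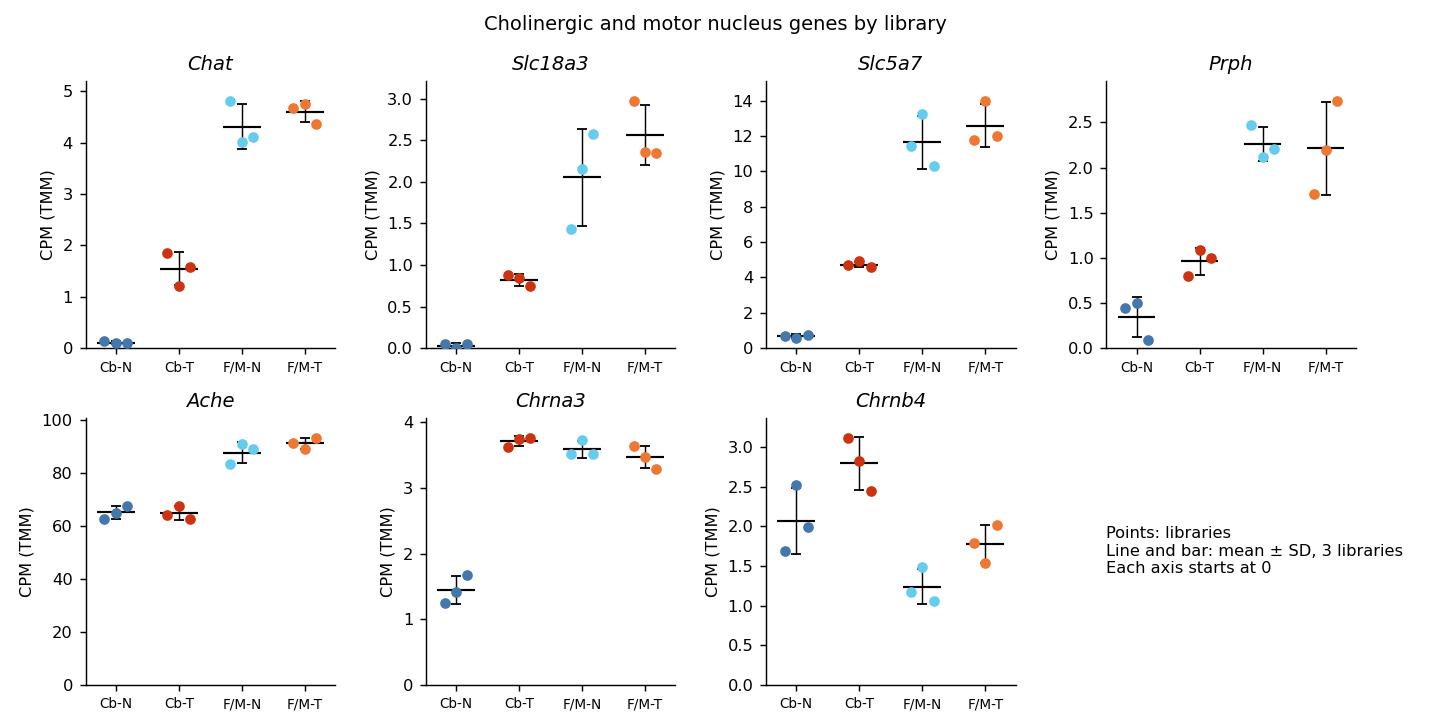
TMM-normalized CPM of the 7 genes in the 12 libraries, with a panel for each gene, a point for each library and the mean ± SD of 3 libraries in each group. In Cb the T libraries of *Chat*, *Slc18a3*, *Slc5a7*, *Prph* and *Chrna3* lie above the N libraries, *Ache* lies between 62.7 and 67.6 CPM in both Cb groups, and *Chrnb4* is the only gene with higher means in Cb than in F/M for both genotypes.

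All 7 genes passed the filter on low counts in both tissues. In Cb, 3 of them (*Chat*, *Slc18a3* and *Prph*) passed only through the T group, with 0, 0 and 2 of the 3 N libraries past the level of the filter. Genes were called where the FDR was under 0.1 and the levels differed 1.5-fold or more. In Cb, 5 of the 7 were called higher in T, against 8.54% of 16382 tested genes, and 0 lower, against 2.66%. The T libraries lay above the N libraries without overlap for the same 5, against 27.7% of tested genes. In F/M, 0 were called higher, against 2.63% of 16665 tested genes, and 0 lower, against 0.858%, and T lay above N without overlap for 1 gene, *Chrnb4*, against 13.3%. The median log2 fold change was 1.46 over the 7 genes and 0.01 over all tested genes in Cb, and 0.13 and 0.01 in F/M. These values chose the genes, so nothing is read from the counts.

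Measured against F/M-N, the mean Cb-N level was 2.46% for *Chat*, 1.47% for *Slc18a3*, 5.73% for *Slc5a7* and 15.3% for *Prph*. The mean Cb-T level was 35.9%, 40.1%, 40.6% and 42.5% for the same 4 genes. They were spread over a wider range of percentages in Cb-N than in Cb-T. *Chrna3* went from 40.3% in Cb-N to 104% in Cb-T, *Ache* was at 74.3% and 74.0%, and *Chrnb4* was at 167% and 226%.

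The difference between the tissues, taken as the mean of Cb-N and Cb-T minus the mean of F/M-N and F/M-T on the log2 scale over all 12 libraries, was not among the values that chose the genes. Its Cb mean still holds the Cb-N and Cb-T libraries whose difference chose the genes, so it is not free of that choice. It lies between the differences within each genotype. By edgeR's quasi-likelihood test, 5 of the 7 genes were lower in Cb, against 21.5% of 17482 tested genes, 1 was higher in Cb, against 18.1%, and 1 did not pass the fold limit. *Slc18a3* was lower by the largest amount (log2 difference -3.74, SE 0.271, adjusted p = 1.19e-13), followed by *Chat* (-3.42, SE 0.166, adjusted p = 5.3e-18). *Slc5a7* was lower at -2.76 (SE 0.0985, adjusted p = 1.82e-21) and *Prph* at -1.94 (SE 0.197, adjusted p = 2.67e-10). For *Chrna3* the difference was -0.61 (SE 0.103, adjusted p = 4.08e-06), and without Cb-N replicate 1 it was -0.555, under the fold limit, which left 4 genes lower. *Ache* was 1.38-fold lower in Cb, below the limit of 1.5, with a small error (-0.46, SE 0.0282, adjusted p = 1.93e-15). *Chrnb4* was the gene higher in Cb (0.70, SE 0.139, adjusted p = 4.34e-05). Within N, the log2 ratio of the mean Cb level to the mean F/M level was -5.35 for *Chat*, -6.09 for *Slc18a3*, -4.12 for *Slc5a7* and -2.71 for *Prph*, the first 2 from very few counts. Within T the values were -1.57, -1.63, -1.41 and -1.20. *Chrna3* was lower in Cb in N alone (-1.31), and in T it was at 3.71 CPM in Cb beside 3.47 CPM in F/M (0.10). *Ache* (-0.43 in N and -0.49 in T) and *Chrnb4* (0.74 and 0.65) differed by like amounts in both. For *Chat*, *Slc18a3*, *Slc5a7* and *Prph* each of the 6 Cb libraries lay below each of the 6 F/M libraries. The share of all genes with such a gap was not counted.

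**Figure D2:**
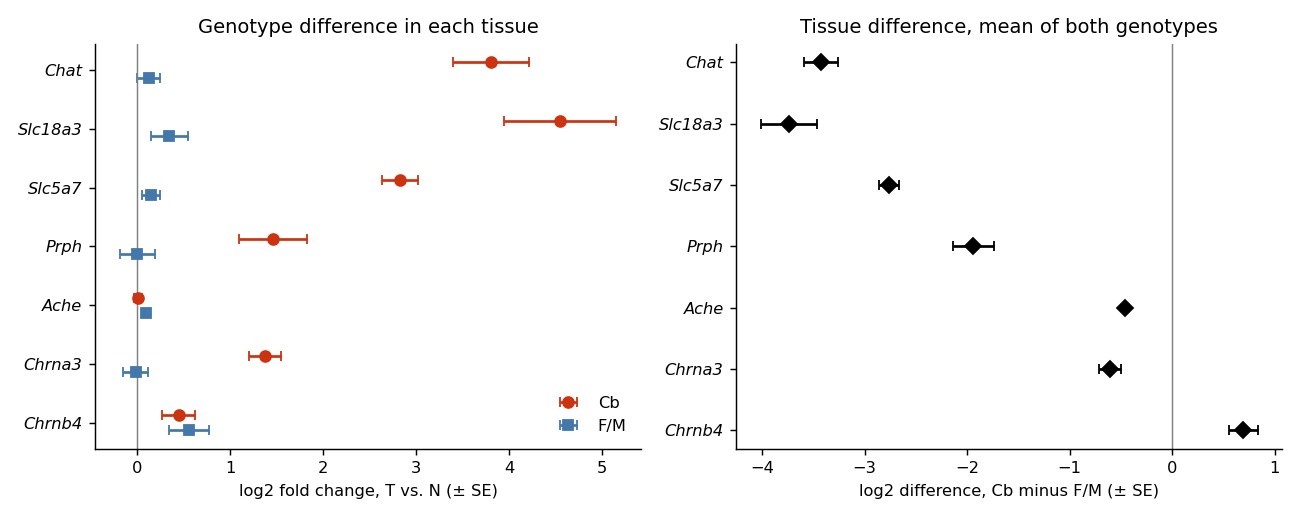
Left, log2 fold change of T vs. N for each gene in Cb (circles) and F/M (squares), and right, the log2 difference of Cb minus F/M averaged over the genotypes (diamonds), with bars for the SE. On the left *Slc18a3* reaches 4.55 and *Ache* 0.0098 in Cb, and on the right the values run from -3.74 for *Slc18a3* to 0.70 for *Chrnb4*.

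Levels of different genes were compared per kb of exon (GENCODE annotation of GRCm38). *Ache* led in every group, from 14.03 CPM per kb in Cb-T to 19.7 CPM per kb in F/M-T. In F/M-N the order after *Ache* was *Slc5a7* (2.06 CPM per kb), *Prph* (1.13), *Chat* (0.916), *Slc18a3* (0.853), *Chrna3* (0.681) and *Chrnb4* (0.333), where *Slc18a3* overlapped with both *Chat* and *Chrna3* and the other neighbors did not overlap. In F/M-T, *Slc18a3* (1.06 CPM per kb) stood ahead of *Chat* (0.979), and it overlapped with both *Prph* and *Chat*. In Cb-N the order after *Ache* was *Chrnb4* (0.555 CPM per kb), *Chrna3* (0.274), *Prph* (0.174), *Slc5a7* (0.118), *Chat* (0.0225) and *Slc18a3* (0.0125). *Prph* overlapped there with both *Chrna3* and *Slc5a7*. In Cb-T, *Slc5a7* (0.838 CPM per kb) came right after *Ache* and overlapped with *Chrnb4* (0.751), which overlapped with *Chrna3* (0.705). *Prph* (0.481), *Slc18a3* (0.342) and *Chat* (0.329) followed, the last 2 overlapping.

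**Figure D3:**
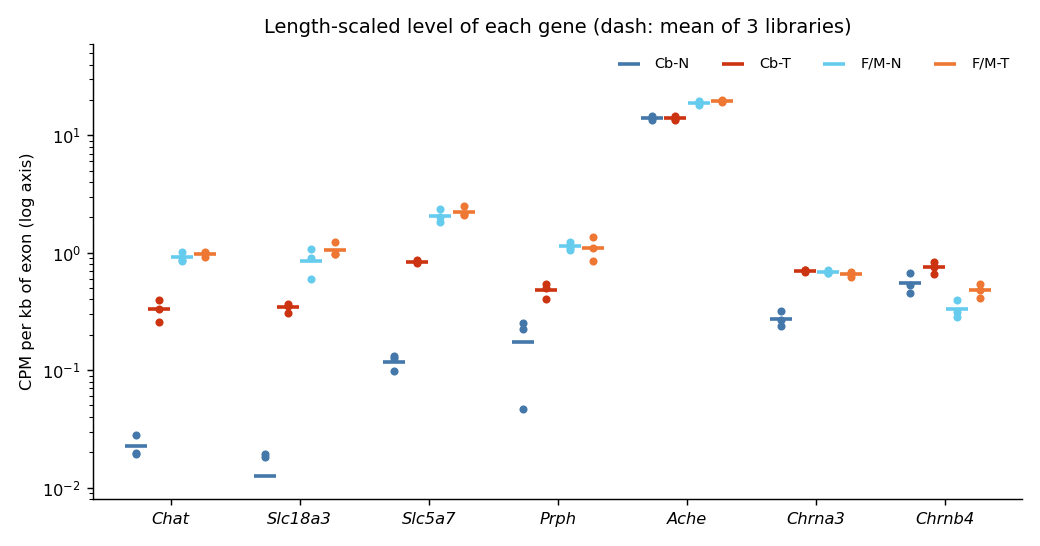
CPM per kb of exon (log axis) of the 7 genes in the 4 groups, with a point for each library and a dash for the mean of 3. *Chat* and *Slc18a3* lie at 0.0225 and 0.0125 CPM per kb in Cb-N and near 1 in F/M, and the Cb-N library of *Slc18a3* with 0 counts has no point.

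Other genes of acetylcholine signaling were taken from a list of 32 genes that holds none of the 7: nicotinic subunits, muscarinic receptors, proteins that assemble or modulate nicotinic receptors, and genes of choline uptake and the esterases. In Cb, 24 of them were tested, 8 were called higher, against 8.54% of all tested genes, 1 lower, against 2.66%, and 15 were not called, with a median log2 fold change of 0.21 beside 0.01 over all tested genes. In F/M, 28 were tested and none was called higher or lower by edgeR or DESeq2, with a median of -0.02. By edgeR, 12 of the 28 had an unadjusted p under 0.05 in F/M, and 11 passed the FDR limit with changes smaller than the fold limit. All adjusted p values are over all tested genes. Some genes passed the filter on low counts with all T libraries but not all N libraries past its level, such as 2 of these 8. The filter fixed or favored their direction, and they are marked as tested through T alone and given with no p value. The gene called lower passed in the same way through N and is also given with no p value. Of the muscarinic receptors, 3 of 4 tested rose in Cb. *Chrm3*, which encodes a receptor coupled to Gq, went from 1.32 ± 0.127 to 5.31 ± 0.226 CPM (SD, n = 3 libraries; log2 fold change 2.02, SE 0.16, edgeR adjusted p = 2.1e-14). *Chrm1*, the receptor of cortex and hippocampus, went from 0.637 to 1.90 CPM (1.58, SE 0.247, edgeR adjusted p = 6.6e-07), far under its 201 CPM in F/M-N. *Chrm2*, which encodes the inhibitory receptor of many cholinergic terminals, went from 8.53 to 13.9 CPM (0.72, SE 0.0844, edgeR adjusted p = 1.2e-09).

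Of the nicotinic subunit genes, 7 of 14 were tested in Cb, of which 3 were called higher and 1 lower. *Chrna6* and *Chrnb3*, whose subunits are known from neurons that release monoamines, went from 0.364 to 1.14 CPM (log2 fold change 1.65, SE 0.327, tested through T alone) and from 0.334 to 0.978 CPM (1.55, SE 0.35, tested through T alone). *Chrna4*, the main α subunit of high-affinity nicotine binding in the brain, rose from 7.73 to 16.7 CPM (1.13, SE 0.0885, edgeR adjusted p = 1.6e-14). *Chrna2* went from 0.713 to 0.314 CPM (-1.15, SE 0.386), with 47 counts in all in Cb-N and 23 in Cb-T. Not all of its T libraries reached the level of the filter, so the filter favored that direction and no p value is given. Without Cb-T replicate 1 no gene of the 32 was called lower. *Chrna5*, whose end lies 2332 bases from that of *Chrna3*, had 5 counts in all in Cb-N and 7 in Cb-T and was not tested. Of 6 modulator genes 1 rose, *Lypd6b*, which encodes a protein of the Ly6 family that binds nicotinic receptors, from 1.65 to 4.02 CPM (1.29, SE 0.162, edgeR adjusted p = 6.1e-09). Of 7 genes of choline uptake and esterases 1 rose, *Prima1*, which anchors acetylcholinesterase in the membrane of neurons, from 1.64 to 2.47 CPM (0.60, SE 0.187, edgeR adjusted p = 0.0067).

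Lists of genes that mark motor neurons, other cholinergic cells, brain regions or neighboring tissue held 71 genes. In Cb, 47 were tested, 24 were called higher, against 8.54% of all tested genes, and 1 lower, against 2.66%, with a median log2 fold change of 0.90 beside 0.01 over all tested genes. In F/M, 42 were tested, 5 were called higher, against 2.63%, and 1 lower, against 0.858%, with a median of 0.11 beside 0.01. Of the 24 called higher in Cb, 17 passed the filter on low counts only through the T group, as did 1 of the 5 in F/M. The filter fixed or favored that direction for such genes, so these counts and medians describe the lists and support nothing. The part that any of these cells has in the differences of the 7 genes was not tested.

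The general neuronal filament genes *Nefl*, *Nefm*, *Nefh* and *Ina*, which encode the filament partners of peripherin, were not called in either tissue by edgeR or DESeq2. Their log2 fold changes ran from -0.19 to 0.33 in Cb, where 4 of 4 had an unadjusted p under 0.05 but lay below the fold limit, and from -0.22 to 0.01 in F/M, where 2 of 4 did. They summed to 791 to 831 CPM in Cb-N, 881 to 922 CPM in Cb-T, 1160 to 1190 CPM in N and 1100 to 1110 CPM in T of F/M. Of 14 genes of motor neurons, 6 were tested in Cb and 4 were called higher, 2 of them tested through T alone. Among them were *Chodl*, a marker of fast motor neurons (0.061 to 0.798 CPM, log2 fold change 3.62, SE 0.524, tested through T alone), *Gfra1*, a receptor for the factor GDNF (5.70 to 20.1 CPM, 1.83, SE 0.0819, edgeR adjusted p = 1.1e-22), and *Calca*, which encodes CGRP (0.892 to 1.66 CPM, 0.90, SE 0.25, edgeR adjusted p = 0.0023). Several transcription factor genes that define motor neurons were at or near 0 in Cb. *Isl1* had 6 counts in all in Cb-N and 1 in Cb-T, *Isl2* had 0 and 3, *Tbx20* had 3 and 1, and *Mnx1* had 0 in all 12 libraries. *Phox2a* had 2 counts in Cb-N and 15 in Cb-T. The list summed to 55.3 to 58.0 CPM in Cb-N and 69.4 to 72.4 CPM in Cb-T, and to 90.8 to 95 CPM in N and 99.6 to 106 CPM in T of F/M, and none of the 5 genes tested in F/M was called by edgeR (2 with an unadjusted p under 0.05) or DESeq2. Most of the Cb sum was *Ret*, with a mean of 49 CPM in N and 46.1 CPM in T.

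Of the genes of basal forebrain cholinergic neurons, *Lhx8* and *Nkx2-1*, transcription factors needed to form those cells, had 0 counts in all 6 Cb libraries, which allows at most 0.121 to 0.139 CPM. Of the 6 genes, 2 were tested in Cb and 1 was called higher, tested through T alone. In F/M, all 6 genes were tested and 2 rose, *Nkx2-1* from 1.90 to 2.92 CPM (0.65, SE 0.171, edgeR adjusted p = 0.0099) and *Lhx8* from 2.14 to 3.18 CPM (0.59, SE 0.167, edgeR adjusted p = 0.015). *Chat* and *Slc5a7* overlapped between the genotypes in the same F/M libraries. The 6 genes summed to 5.13 to 6.35 CPM in Cb-N, 8.57 to 9.61 CPM in Cb-T, 14.5 to 15.3 CPM in N and 18 to 21.6 CPM in T of F/M.

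Genes of the medial habenula, the known site of *Chrna3* and *Chrnb4*, were 1 of 4 called in Cb and 1 of 6 in F/M. *Pou4f1*, a transcription factor of habenula and of several brainstem nuclei, went in Cb from 0.106 to 1.24 CPM (log2 fold change 3.49, SE 0.415, tested through T alone), and *Gpr151*, an orphan receptor of the habenula, rose in F/M from 1.75 to 2.87 CPM (0.74, SE 0.17, edgeR adjusted p = 0.0037). The list summed to 34.9 to 38.6 CPM in Cb-N, 29.5 to 31.1 CPM in Cb-T, 100 to 104 CPM in N and 94.9 to 100 CPM in T of F/M. In Cb most of this sum was *Nwd2*, with a mean of 30.7 CPM in N and 21.7 CPM in T. All other genes of the list had a higher mean in Cb-T than in Cb-N. Of the 6 genes of striatal projection neurons, 2 were called higher in Cb. They were *Drd2*, which encodes the D2 dopamine receptor (0.760 to 7.03 CPM, 3.22, SE 0.17, edgeR adjusted p = 4.5e-20), and *Drd1*, which encodes the D1 receptor (0.408 to 0.768 CPM, 0.92, SE 0.349, tested through T alone). With DESeq2, 1 of the 6 was called in Cb. None of the 6 was called in F/M by edgeR (2 with an unadjusted p under 0.05) or DESeq2, and the list summed to 161 to 172 CPM in Cb-N, 161 to 162 CPM in Cb-T, 598 to 640 CPM in N and 591 to 612 CPM in T of F/M. Most of the Cb sum was *Ppp1r1b*, with a mean of 159 CPM in N and 144 CPM in T.

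The hindbrain *Hox* genes, which stay on in neurons of the medulla and pons in the adult and are off in the cerebellum and forebrain, were near 0 in 3 of the 4 groups. The 13 summed to 0.325 to 0.550 CPM in Cb-N and 13.7 to 14.5 CPM in Cb-T, and to at most 0.0846 CPM in N and 0.0828 CPM in T of F/M, where 11 genes had no count within each genotype. Of the 13, 10 were tested and called higher in Cb-T, but all 10 passed the filter only through Cb-T, so that direction was fixed by the filter. In Cb-N, 6 of the 13 had 0 counts in all 3 libraries. Against 3 counts per library, *Hoxb5* was at least 18.5-fold higher in Cb-T, *Hoxc4* at least 7.56-fold, *Hoxc5* at least 5.54-fold and *Hoxb6* at least 5.44-fold. Neighboring *Hox* genes overlap in the annotation, so the counts of single members are uncertain.

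Of 7 genes of noradrenaline and serotonin neurons, whose nuclei also lie in the brainstem, 6 were tested in Cb and 5 were called higher. *Slc18a2*, the vesicular monoamine transporter, rose from 0.820 to 10.6 CPM (log2 fold change 3.70, SE 0.153, edgeR adjusted p = 6.9e-24), *Dbh*, the enzyme that makes noradrenaline, from 0.654 to 7.99 CPM (3.62, SE 0.171, edgeR adjusted p = 8.1e-22), *Slc6a2*, the noradrenaline transporter, from 1.01 to 8.68 CPM (3.10, SE 0.158, edgeR adjusted p = 1.1e-20), and *Slc6a4*, the serotonin transporter, went from 0.287 to 1.68 CPM (2.53, SE 0.321, tested through T alone). In F/M, 2 of 5 were called higher. *Slc6a4* went from 0.144 to 6.33 CPM (5.43, SE 0.24, tested through T alone) and *Tph2*, the serotonin-making enzyme, rose from 1.21 to 9.65 CPM (3.03, SE 0.14, edgeR adjusted p = 2.5e-12). The list summed to 14.5 to 15.5 CPM in Cb-N, 43.0 to 48.4 CPM in Cb-T, 26.2 to 27.3 CPM in N and 44.7 to 46.5 CPM in T of F/M.

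**Figure D4:**
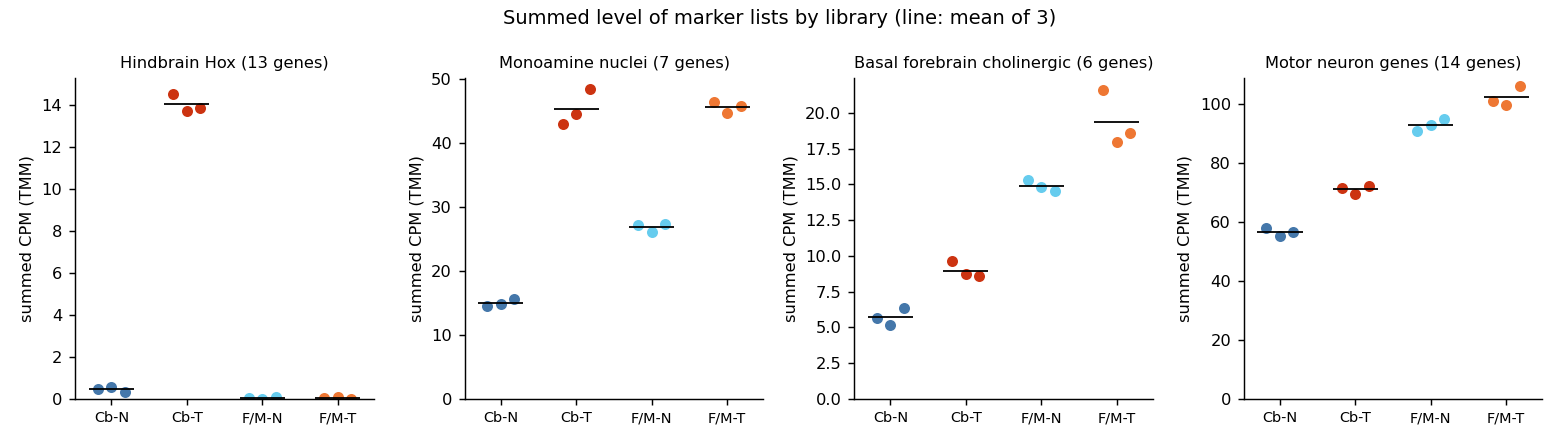
Summed TMM CPM of 4 marker lists in the 12 libraries, with a point for each library and a line for the mean of 3 in each group. The *Hox* sum is at 13.7 to 14.5 CPM in Cb-T and at most 0.550 CPM elsewhere, and the monoamine sum is higher in T in both tissues.

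Other lists covered tissue that can cling to a dissected brain. Of peripheral glia genes, *Egr2* went in Cb from 0.153 to 0.870 CPM (log2 fold change 2.49, SE 0.442, tested through T alone) and fell in F/M from 23.7 to 13 CPM (-0.84, SE 0.0638, edgeR adjusted p = 8.7e-09). It is also an immediate early gene of neurons. The defining gene *Pmp2* had 0 counts in all libraries and the list summed to 2.20 to 2.75 CPM in Cb-N, 3.36 to 4.30 CPM in Cb-T, 24.7 to 26.5 CPM in N and 14.8 to 15.6 CPM in T of F/M. Of sensory ganglion genes, *Avil* was the only gene tested in Cb and fell from 1.76 to 1.14 CPM (-0.61, SE 0.226, edgeR adjusted p = 0.022), a call that was lost without Cb-N replicate 3, without Cb-T replicate 1 and with DESeq2. That list summed to 1.64 to 2.41 CPM in Cb-N, 1.22 to 1.49 CPM in Cb-T, 1.95 to 2.43 CPM in N and 1.90 to 2.70 CPM in T of F/M. None of the 5 choroid plexus genes was called in either tissue by edgeR or DESeq2 (2 with an unadjusted p under 0.05 in each by edgeR), with sums of 2220 to 2360 CPM in Cb-N, 2110 to 2240 CPM in Cb-T, 594 to 633 CPM in N and 816 to 862 CPM in T of F/M. *Ttr*, which held most of the sum, rose in F/M from 555 to 774 CPM and missed only the fold limit (0.51, SE 0.0311, edgeR adjusted p = 2.7e-10). Genes that mark the cerebellum (6 tested) and the forebrain (3 tested) were not called in Cb, with medians of -0.21 and -0.28, and in F/M the medians were -0.05 (5 tested) and -0.12 (5 tested), again with none called by edgeR or DESeq2. By edgeR, 5 genes of the cerebellum list and 1 of the forebrain list had an unadjusted p under 0.05 in Cb, and 1 and 4 did in F/M.

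**Figure D5:**
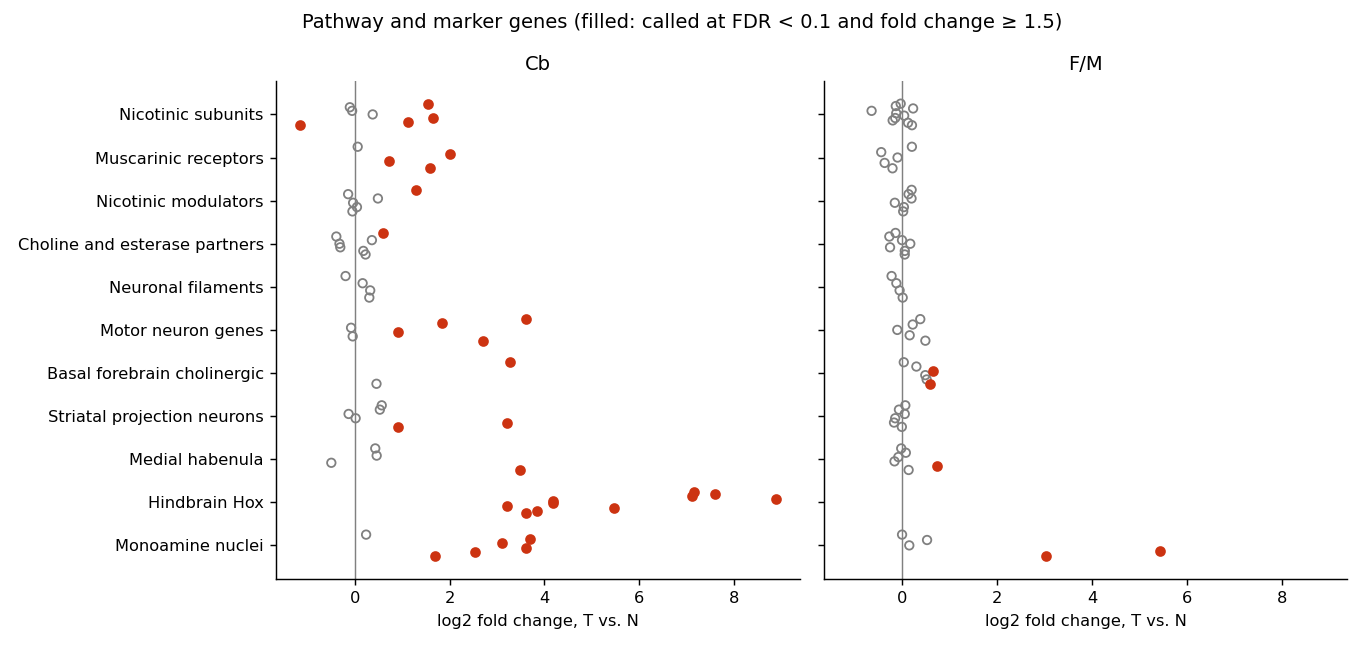
Log2 fold change of T vs. N for each tested gene of 11 lists (all but peripheral glia, sensory ganglia, choroid plexus and the 2 tissue identity lists) in Cb (left) and F/M (right), filled where the gene was called. The 10 tested *Hox* genes, which passed the filter only through Cb-T, are filled in Cb, where their values depend on the prior count for the 4 genes with 0 counts in Cb-N, and in F/M the filled points are *Nkx2-1*, *Lhx8*, *Gpr151*, *Tph2* and *Slc6a4*.

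For each of the 7 genes, the genes with the most similar pattern were found among 17475 others by Pearson's r of log2 CPM over the 12 libraries, which fall into 4 groups and share their group differences, so r is a description. *Chat* was most like *Cbln2* (r = 0.995), *Slc6a11* (0.994) and *Ankrd34c* (0.994). *Cbln2*, a synapse organizer, had mean levels of 1.16, 10.7, 37.1 and 33.4 CPM in Cb-N, Cb-T, F/M-N and F/M-T. *Slc18a3* was most like *Crhbp* (0.993), *Rgs10* (0.992) and *Trim59* (0.991), and *Slc5a7* was most like *Ankrd34c* (0.997), *Crhbp* (0.996) and *Ndst4* (0.995). *Crhbp*, which encodes the binding protein of corticotropin-releasing hormone, was at 0.107, 3.85, 12.4 and 15.7 CPM in the same order. *Prph* was most like *Stk32b* (0.976), *Sall3* (0.974) and *Smpdl3b* (0.969). *Chrna3* had other partners, *Lhx9* (0.986), *Tcf7l2* (0.980) and *Slc17a6* (0.977). *Slc17a6*, which encodes the vesicular glutamate transporter of thalamus, midbrain and brainstem, was at 21.2, 102, 127 and 122 CPM, with Cb-T close to F/M as for *Chrna3*. *Ache* was most like *AC154734.1* (0.998), *A830073O21Rik* (0.995) and *Gm45623* (0.990), all with little difference between the genotypes in Cb. *Chrnb4* was most like *Renbp* (0.951), *Rrbp1* (0.941) and *Slc2a12* (0.938), at lower r than the rest.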

How the data were processed

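Total RNA of Cb and F/M from Tpp1-/- (T) and wild type (N) mice was made into 12 stranded poly(A) libraries and read as single ends. The authors aligned the reads to mm10 with STAR 2.5.1b, counted them on genes with featureCounts 1.26.1 (versions from the submitters' processing notes) and deposited raw counts per gene for each library. The strand setting of the count, the handling of multiply mapped reads and the annotation release are not given in the sources used here. Groups and replicate numbers were taken from the sample titles.

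From these counts, each tissue was fitted on its 6 libraries in R 4.3.3 with edgeR 4.0.16: filterByExpr (minimum count 10, minimum total count 15), TMM, glmQLFit and glmQLFTest (two-sided), and Benjamini-Hochberg adjustment over all tested genes. Log2 CPM, used for the correlations, was taken with a prior count of 2. Fold changes came from the fit, with edgeR's default prior count. Genes were called under an FDR of 0.1 if they differed 1.5-fold or more. These are the limits of the study, which also asked for a call by at least 2 methods, a step not used here. The tissue contrast used all 12 libraries. Ratio intervals (95%) are exact binomial intervals on summed counts and cover counting error only, since reads without molecular identifiers are not independent molecules. Replicate pairs differed by more than sampling noise (chi-square per degree of freedom 1.28 to 3.59), so no pair was taken as repeats of 1 library. Exon lengths and positions were taken from GENCODE vM21 by symbol. The fits were tested on simulated data. Alternatives were RLE size factors, DESeq2 1.42.0, no filter on low counts, the replicate number as a block, a single fit of 12 libraries, and each replicate left out.

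The 7 genes and all lists were chosen with earlier results of these data known. The genes named are the 7 in each library, up to 4 called genes with the largest log2 fold change in each direction per list and tissue (a few uncalled list genes were named for their levels, after these were seen), the 3 genes most alike to each of the 7, and *Tpp1*. A few results of named list genes are not reported here. Whether a Cb library and the F/M library with its number came from 1 mouse is not given in the sources used here. Total counts of 21428379 to 24458189 per library limit what can be seen below 0.121 to 0.139 CPM. For the replicate numbers, the deviations of same-numbered libraries from their group means correlated at -0.016 to 0.062 over 12 pairs.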

Additional observations from a re-analysis of the deposited data

Results flagged for a closer look

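For some genes of the lists, every T library moved away from every N library in Cb and the opposite way in F/M. The difference between the tissues was not tested for any of them. The log2 fold change was 1.13 in Cb and -0.20 in F/M for *Chrna4*, 1.58 and -0.20 for *Chrm1*, 0.72 and -0.37 for *Chrm2*, and 2.02 and -0.0948 for *Chrm3*. It was 0.60 in Cb and -0.14 in F/M for *Prima1*, 3.22 and -0.17 for *Drd2*, and 2.49 and -0.84 for *Egr2*. In F/M only the change of *Egr2* was called by edgeR. The others were below the fold limit there, and *Chrm3* and *Prima1* also missed the FDR limit. Groups of 3 libraries were too small for a check of single outlying libraries.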

How the results depend on the processing

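Under the settings tried, 359 values stayed on their side of the limits or within the spread between replicates, 10 moved and 1 lost its call. Uncalled values near 0 changed sign under some settings, most with a replicate left out, with *Ache* at -0.0225 to 0.0315 in Cb, and *Prph* at -0.179 to 0.153 and *Chrna3* at -0.0503 to 0.0192 in F/M. Marker genes lower in Cb numbered 1 in the analysis as reported, 0 with DESeq2, 2 in a single fit of 12 libraries, and 0 to 1 with a replicate left out. Acetylcholine pathway genes lower in Cb numbered 0 to 1 with a replicate left out. Marker genes higher in F/M numbered 5, and 9 with no filter on low counts, where more genes are tested, and those lower in F/M numbered 1 to 2 with a replicate left out. The log2 fold change of *Slc18a3* in Cb ran from 4.04 to 4.90, and that of *Prph* from 1.02 to 1.81, with a replicate left out. The tissue difference of *Chrna3* was -0.555 without Cb-N replicate 1, under the fold limit. Over all genes, DESeq2 called 261 higher and 76 lower in F/M, against 438 and 143 with edgeR. Where no cause is named, the cause was not tested. Same-numbered libraries did not deviate together (correlations of -0.016 to 0.062), and the numbers were not taken as pairs. The fit with a replicate block called 1400 genes higher and 434 lower in Cb, against 1399 and 436 without it, and 457 and 150 in F/M. The counts of list genes in it stayed within 1.5 times, with *Chat* at 3.81, *Slc18a3* at 4.55 and *Slc5a7* at 2.83 in Cb. Among the 7 genes, depth limits *Chat* and *Slc18a3* in Cb-N most, with 7 and 2 counts in all.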
